A study of Gallus gallus with 12 samples.

Results

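The 150 genes described here were those highest in chicken embryonic fibroblasts given a non-specific control siRNA over fibroblasts given a control vector. They were chosen in 3 steps from the deposited count table. Counts were scaled to CPM, the count of a gene for every 1e6 counts of its library, genes with a mean of 5 CPM or more over the 3 control siRNA libraries were kept, and these were ranked by the log2 ratio of mean CPM + 1 between both control groups. The 150 largest ratios were taken out of 10020 genes that met the minimum, 22074 genes with any count and 26102 gene IDs in all.

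The fibroblasts (CEFs) were primary cultures of the connective tissue cell that lays down collagen, taken at day 9 from specific-pathogen-free embryos whose breed is labelled broiler. The study asked what *Myoz3*, a gene of the sarcomere's Z-line, regulates in these cells, and it sequenced RNA from 12 transfected cultures, with 3 libraries in each group. Inter received siRNA against *Myoz3* and NC received the non-specific siRNA. Over received a lentiviral plasmid that carries the *Myoz3* coding sequence behind a CMV promoter, active in most cell types, with a fluorescent reporter, and Control received the vector alone. All 4 groups shared the cell source, the medium and transfection with a lipid reagent, and no untransfected culture was used here. The study calls its replicates biological without saying what separated them. The p-values set group differences against the spread between these libraries, which may not be that between embryos or cell preparations. The total count ranged from 14261605 to 19804175 in Inter, from 13291600 to 15969800 in NC, from 18300623 to 19773117 in Over and from 21204899 to 23576681 in Control.

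The siRNA and vector groups differ in the nucleic acid they received. A siRNA is a short double-stranded RNA that is loaded into an Argonaute protein in the cytoplasm and directs the cleavage of mRNAs it matches, and a non-specific siRNA is designed to match none. A vector is a long double-stranded DNA that has to reach the nucleus to be transcribed, and vertebrate cells have separate sensors for foreign RNA and for foreign DNA. The contrast of NC with Control therefore changes the transfected molecule and everything that was done differently for it, and these cannot be told apart. In RNA from whole cultures, a larger number of cells of one type and more RNA per cell cannot be told apart either.

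No table used here pairs the Ensembl gene IDs with symbols, and the members are therefore given by ID, without a role. *Myoz3* itself, markers of fibroblasts and of other cell types, and pathway lists were not analysed here for the same reason. The labels could therefore not be checked by the targeted gene or by cell type.

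Some libraries stood nearer to another group than to their own. As a measure of distance the root mean square difference of log2 (CPM + 1) over the 10020 genes was taken. Inter 3 was 0.29 from Inter 1 and 0.25 from Inter 2, against 0.17 from NC 1 and 0.18 from NC 2, and it was 0.25 from NC 3. NC 3 was 0.19 from Inter 1 and 0.19 from Inter 2, against 0.22 from NC 1 and 0.23 from NC 2. Over 1 was 0.24 from Over 2 and 0.22 from Over 3, against 0.18 from Control 1 and 0.18 from Control 2. The study described Inter 3 as apart, with too little knockdown, and its text names the third NC group as the one excluded. Inter 3 was left out of the fitted comparison with NC here, while log2 ratios of mean CPM + 1 used all 3 Inter libraries. Tests that rest on Inter 3, NC 3 or Over 1 are given with and without them.

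The ratio of NC to Control chose the members, so it is a description only. It lay between 1.32 and 3.67 on the log2 scale, with a median of 1.55, and was 2 or more in 39 members and 3 or more in 8. No other gene of the 10020 had a ratio of 2 or more. The median over all 10020 genes was 0.19. Every NC library lay above every Control library in all 150 members and in 50.0% of the 10020 genes, and edgeR's test placed 31.9% of the 14371 genes tested as higher in NC than in Control, with 35.4% lower. Nothing is read from the members' count here, since this contrast chose them. The members were mostly genes of moderate level in NC, with a median of 27.7 CPM. In NC, 32 members had from 5 to under 10 CPM, 82 had from 10 to under 100, 32 had from 100 to under 1000, and 4 had 1000 or more. In Control their median was 7.68 CPM and 9 members had a mean under 1 CPM. Each of the 150 had counts in every library, and the lowest count was 4 reads, in Control 3.

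The last member inside the list, ENSGALG00000002142, had a ratio of 1.3221 on the log2 scale, with means of 14.8 CPM in NC and 5.30 CPM in Control. The first gene outside, ENSGALG00000040493, had a ratio of 1.3216, with means of 48.0 CPM in NC and 18.6 CPM in Control. The end of the list is thus a point on a continuous scale and not a gap.

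ENSGALG00000043598 was ranked first and was also the most counted member in NC. It had 10580, 11421 and 10051 CPM in the Inter libraries and 12546, 10787 and 15123 CPM in the NC libraries. It had 1045, 1014 and 799.7 CPM in the Over libraries, against 884 CPM, 815 CPM and 1318 CPM in the Control libraries. All siRNA libraries lay above all vector libraries by several fold, while Inter overlapped NC and Over overlapped Control. ENSGALG00000033026, ranked second, had 113, 134 and 237 CPM in Inter and 214, 165 and 97.1 CPM in NC. It had 13.4, 13.8 and 9.02 CPM in Over and 13.4, 11.1 and 14.9 CPM in Control. In this gene too the siRNA and vector libraries were apart, though replicates within Inter and within NC differed by more than 2-fold. NC and Control ranked both genes, so only Inter and Over were not used by the rule.

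**Figure D1:**
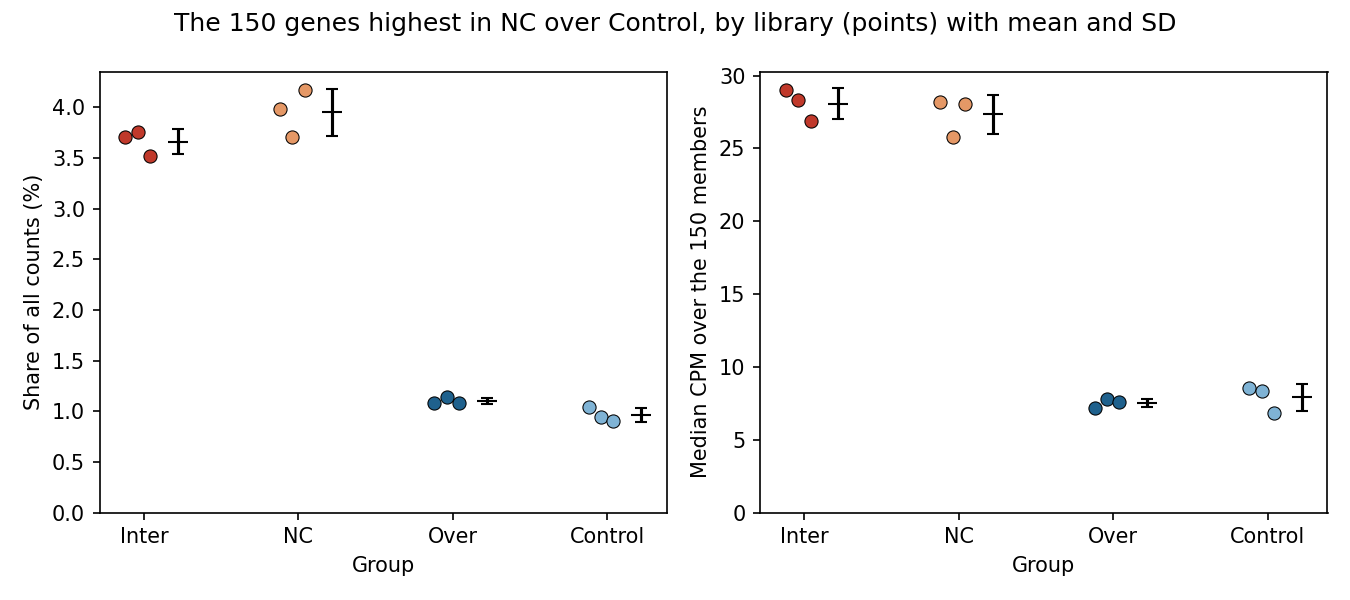
Share of all counts that fell on the 150 members (left, percent) and median CPM over the members (right) in each of the 12 libraries. Points are libraries, and the bar beside them is the mean with its SD (n = 3). The siRNA libraries lie between 3.52% and 4.17% and the vector libraries between 0.905% and 1.14%. NC and Control chose the members.

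The members took 3.66% ± 0.127 of all counts in Inter and 3.95% ± 0.234 in NC (SD, n = 3 each). They took 1.08%, 1.14% and 1.08% in the Over libraries and 1.04%, 0.943% and 0.905% in the Control libraries. Every siRNA library was above every vector library. NC and Control chose the members, so of these groups only Inter and Over were not used by the rule. The 4 members of 1000 CPM or more in NC held most of the members' counts, 65.5% of their sum in Inter, 67.9% in NC, 63.2% in Over and 62.2% in Control. Without the 2 most counted members the share was 1.64% ± 0.0627 in Inter, 1.63% ± 0.0366 in NC, 0.548% ± 0.0270 in Over and 0.487% ± 0.0441 in Control (SD, n = 3 each). The median over members, which does not depend on the most counted genes, was 28.1 ± 1.07 CPM in Inter, 27.3 ± 1.33 CPM in NC, 7.53 ± 0.285 CPM in Over and 7.91 ± 0.936 CPM in Control (SD, n = 3 each).

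Inter and Over were not used to choose the members, so they show the same contrast of siRNA with vector in other libraries. Between these groups every member was higher in Inter. edgeR's quasi-likelihood test compares counts while allowing each gene its own spread. At an adjusted p of 0.05 it called 150 of the 150 members higher and 0 lower. These include all 141 members that met the filter on low counts in Over alone. The rest entered the test through their level in Inter, so nothing is read from their calls. At an unadjusted p of 0.05 the number lower was also 0, and both DESeq2 and edgeR's likelihood ratio test called 150 higher and 0 lower. In the quasi-likelihood fit 30.9% of the 14417 genes tested were called higher and 32.6% lower. Of the same genes DESeq2 called 3979 higher and 4636 lower, and the likelihood ratio test 4557 higher and 4762 lower. All 3 Inter libraries lay above all 3 Over libraries in each of the 150 members, and in 47.2% of the 10020 genes of 5 CPM or more in NC. Of the pairs that share 1 group with the rule, Inter lay wholly above Control in 150 members (52.4% of the 10020 genes). NC lay wholly above Over in 150 (45.4% of the 10020 genes). Control and NC chose the members, so nothing is read from the counts of these pairs. Without Inter 3 or without Over 1 the test still called all 150 higher in Inter than in Over.

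The fitted log2 fold changes of Inter over Over lay between 0.62 and 4.40, with a median of 1.54 over the members and of 0.03 over all genes tested. The highest adjusted p among the members was 0.00475 (edgeR's quasi-likelihood test, adjusted over all genes tested by the Benjamini-Hochberg method). All 150 passed the filter on low counts, and 141 of them met it in Over alone, so 9 entered through their level in Inter. Scaling by library totals in place of edgeR's TMM factors moved the median of all genes to 0.16 and that of the members to 1.67. Such a change shifts all genes by nearly the same amount, so nothing is read from the distance between these medians. In this contrast the *Myoz3* knockdown and overexpression differ as well, and they cannot be told apart from the kind of transfection.

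ENSGALG00000037096 had the largest fold change of Inter over Over. It had 20.8, 23.2 and 19.8 CPM in the Inter libraries, against 0.874, 1.01 and 0.864 CPM in the Over libraries. It was 1 of 13 members with a mean under 1 CPM in Over. The log2 fold change was 4.40 with a standard error of 0.15 (adjusted p = 1.35e-07, edgeR's quasi-likelihood test). ENSGALG00000036724 had 9.33, 9.95 and 8.53 CPM in Inter, against 0.383, 0.708 and 0.432 CPM in Over. This gene is 1 of the 9 that passed the filter only through Inter, so its values are given without a test. In ENSGALG00000043598, ranked first by the rule, the log2 fold change of Inter over Over was 3.36 with a standard error of 0.12 (adjusted p = 1.62e-07, the same test).

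**Figure D2:**
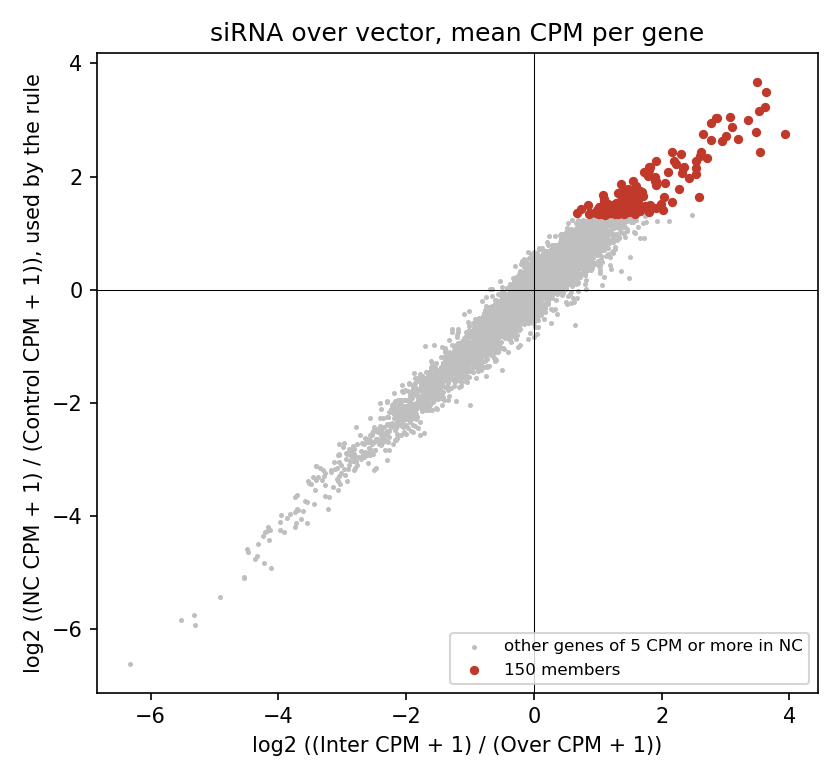
log2 ratio of mean CPM + 1 for Inter over Over (horizontal axis) and for NC over Control (vertical axis, used to choose the members). Each point is 1 of 10020 genes of 5 CPM or more in NC, with the 150 members in red. All members lie right of 0, between 0.68 and 3.93 on the horizontal axis.

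On the scale of the rule, the log2 ratio of mean CPM + 1, the median of the members was 1.53 for Inter over Over and 1.55 for NC over Control. The ratio of Inter to Over was the larger of these in 61 members and the smaller in 89, and both ratios were within 0.5 of each other in 136. Across the 150 members the ratios had a Pearson correlation of 0.894 and a Spearman correlation of 0.772. These are descriptions over genes measured in shared libraries, and genes are not independent replicates.

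The comparison of Inter with NC asks whether *Myoz3* siRNA changed these genes beyond the non-specific siRNA. NC took part in choosing the members, so that a member's NC values tend to be its high ones, and the counts below are read only as a description. With Inter 3 left out, the fitted log2 fold changes of Inter over NC had a median of 0.03 over the members and of 0.0014 over all genes tested, and ranged from -0.67 to 0.87. Of the members 81 had a positive and 69 a negative value, and with all 3 Inter libraries 67 had a positive and 83 a negative value and the median was -0.02. The quasi-likelihood test called 2 members higher in Inter, where 0.0986% of the 14194 genes tested were called higher. It called 0 lower, where 0.127% were called lower. At an unadjusted p of 0.05 the counts were 17 members higher and 16 lower, where 2099 of all 14194 genes passed in either direction. The latter count was not split by direction, so nothing is read from the members' split. edgeR's likelihood ratio test called 6 members higher and 0 lower, beside 94 higher and 247 lower of all genes tested. DESeq2 called 4 members higher and 1 lower, beside 44 higher and 152 lower of all genes.

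ENSGALG00000037096, the member with the largest fold change over Over, was also the one with the largest rise over NC. It had 20.8 and 23.2 CPM in Inter 1 and 2 and 19.8 CPM in Inter 3, against 9.10, 13.4 and 12.6 CPM in NC. All Inter libraries lay above all NC libraries. The log2 fold change was 0.87 with a standard error of 0.15 (adjusted p = 0.0424, edgeR's quasi-likelihood test, from 0.00114 to 0.812 when 1 library was left out). ENSGALG00000034294 had 23.6 and 23.7 CPM in Inter 1 and 2 and 18.1 CPM in Inter 3, against 14.8, 13.7 and 11.6 CPM in NC. Its log2 fold change was 0.79 with a standard error of 0.12 (adjusted p = 0.0411, the same test, from 0.000870 to 0.812 when 1 library was left out). In the vector libraries ENSGALG00000034294 had 2.84, 4.86 and 4.59 CPM in Over and 3.56, 3.94 and 4.20 CPM in Control, which overlapped. With all 3 Inter libraries, against 3 NC libraries or against NC 1 and 2, neither gene was called, nor was any other member. In both fits 0 of all genes tested were called higher and 0 lower, so nothing is read from the members' zeros. Without Inter 1 or without Inter 2 only 1 Inter library remained, so no count is given for those fits. The number of members called higher was 0 without NC 1, 1 without NC 2 and 11 without NC 3. Those called lower were 0 in each of these fits except that without NC 3, which called 10. That fit, of Inter 1 and 2 with NC 1 and 2, called 350 of all 13917 genes tested higher and 1000 lower. The fit without NC 2 called 14 of all 13897 genes tested higher and 2 lower. The fit without NC 1 called 4 of all 14066 genes tested higher and 1 lower.

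Among the members lower in Inter 1 and 2, none passed the test with all 3 NC libraries in. The 2 of lowest p are given as values. ENSGALG00000035884 had 508 and 602 CPM in Inter 1 and 2 and 749.5 CPM in Inter 3, against 673, 667 and 633 CPM in NC. Its log2 fold change was -0.28 with a standard error of 0.07 (adjusted p = 0.136, edgeR's quasi-likelihood test). By the same test the adjusted p was 0.0107 without NC 3 and 0.440 without NC 1, and DESeq2 gave 0.0281. ENSGALG00000033597 had 65.2 and 68.2 CPM in Inter 1 and 2 and 84.1 CPM in Inter 3, against 80.5, 86.2 and 71.2 CPM in NC. Its log2 fold change was -0.29 with a standard error of 0.08 (adjusted p = 0.162, edgeR's quasi-likelihood test). By the same test the adjusted p was 0.00364 without NC 3 and 0.453 without NC 1, and DESeq2 gave 0.137. In both genes Inter 3 lay on the other side of NC 3 from Inter 1 and 2. Between Over and Control the log2 fold change of ENSGALG00000035884 was -0.50 (adjusted p = 0.158, edgeR's quasi-likelihood test). That of ENSGALG00000033597 was 0.57 (adjusted p = 0.0814, the same test). Over all 3 libraries per group, Inter lay wholly above NC in 12 members (8.44% of the 10020 genes) and NC lay wholly above Inter in 11 (3.81% of the 10020 genes).

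**Figure D3:**
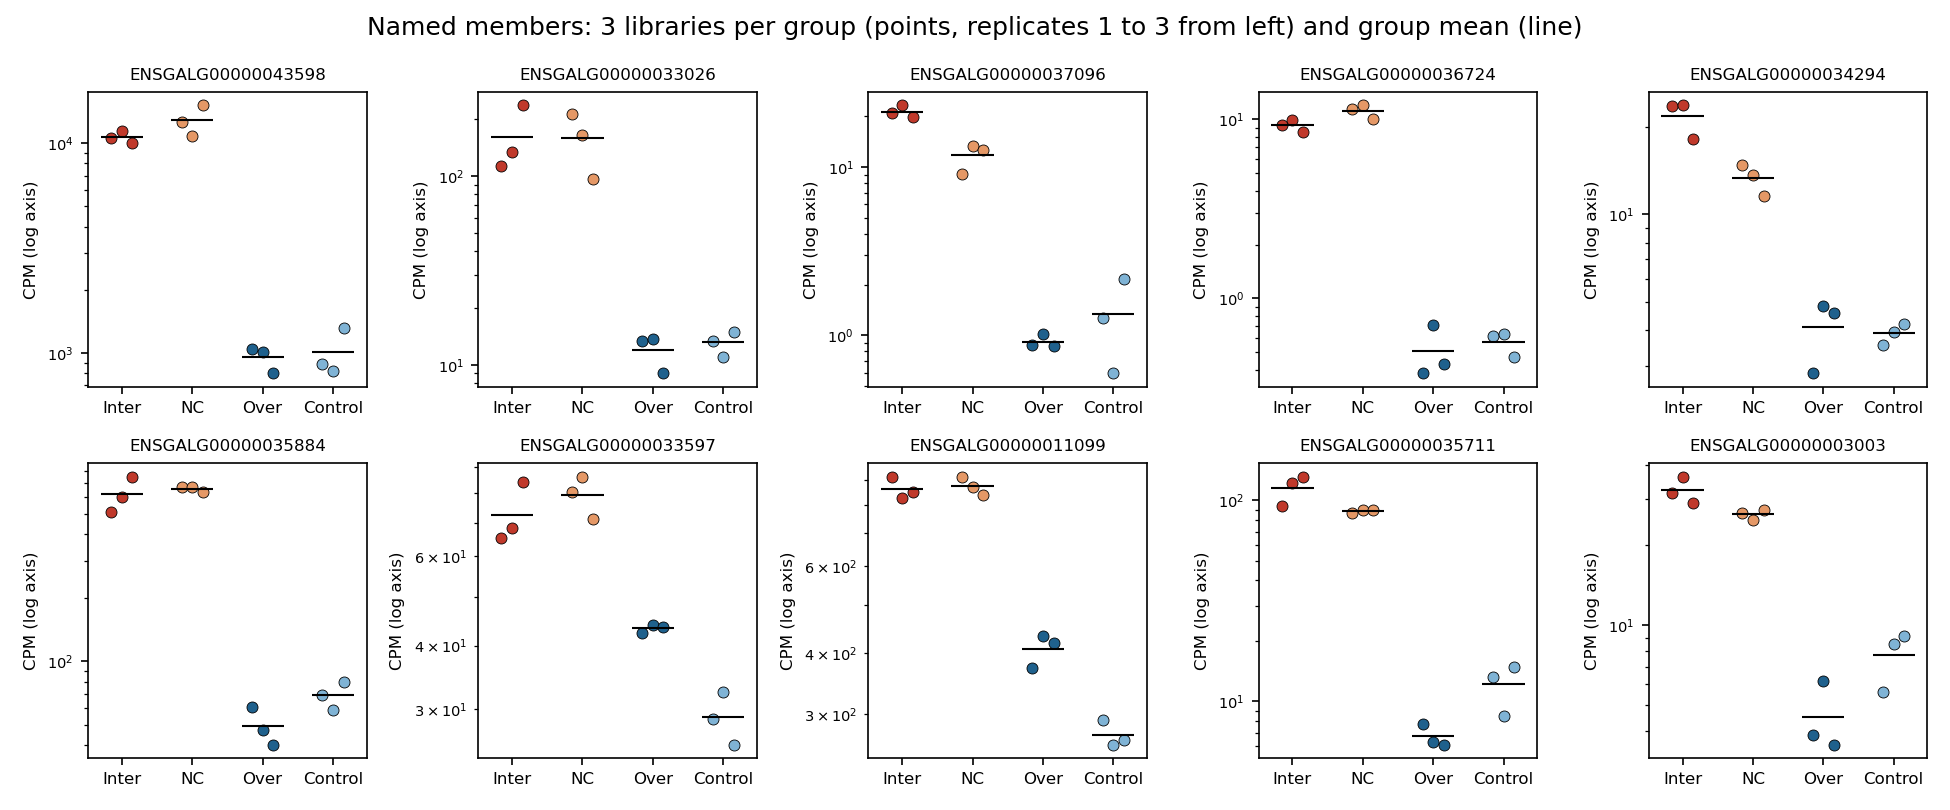
CPM of the first 2 members by rank and of the members named in the tested comparisons, in the 3 libraries of each group. The vertical axes are logarithmic and differ between panels, points are replicates 1 to 3 from the left and lines are group means. In all 10 genes every Inter and NC library lies above every Over and Control library. NC and Control chose the members.

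The comparison of Over with Control asks whether the *Myoz3* vector changed these genes beyond the vector alone. Control took part in choosing the members, with low values, and the counts are again a description. The fitted log2 fold changes of Over over Control had a median of 0.09 over the members and of -0.000495 over all genes tested, and ranged from -0.88 to 0.70. Of the members 91 had a positive and 59 a negative value. The members' median was 0.15 without Control 1 and 0.01 without Control 3, where 81 had a positive and 68 a negative value. The quasi-likelihood test called 1 member higher in Over, where 0.0142% of the 14128 genes tested were called higher. It called 0 lower, where 0.0142% were called lower. At an unadjusted p of 0.05 the counts were 30 members higher and 9 lower, where 2623 of all 14128 genes passed in either direction. The count over all genes was not split by direction, so nothing is read from the members' split. edgeR's likelihood ratio test called 7 members higher and 3 lower, beside 114 higher and 300 lower of all genes tested. DESeq2 called 7 members higher and 2 lower, beside 95 higher and 294 lower of all genes. Over lay wholly above Control in 29 members (13.5% of the 10020 genes) and Control lay wholly above Over in 5 (9.70% of the 10020 genes).

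ENSGALG00000011099 was the member called higher in Over. It had 372, 433 and 419 CPM in the Over libraries, against 292, 261 and 266 CPM in the Control libraries. The groups did not overlap, and Over 1 was the nearest to Control. The log2 fold change was 0.56 with a standard error of 0.08 (adjusted p = 0.0347, edgeR's quasi-likelihood test, from 0.000571 to 0.373 when 1 library was left out). In the siRNA libraries the same gene had 912, 827 and 850.1 CPM in Inter and 912, 868 and 837 CPM in NC. Its level in Over lay between those of Control and of the siRNA groups. The members were chosen as low in Control and high in NC, so this placement and the call are a description only. Without Over 1 the test called 15 members higher and 11 lower, and 519 of all 14443 genes tested higher and 1366 lower. Without Over 2, Over 3, Control 1, Control 2 or Control 3 it called 0 of all genes tested in either direction, ENSGALG00000011099 included. Nothing is read from the members' zeros in those fits.

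With all Over and Control libraries in, no member passed the quasi-likelihood test as lower in Over. The 2 of lowest p are given as values. ENSGALG00000035711 had 7.70, 6.27 and 6.11 CPM in Over, against 13.3, 8.48 and 14.9 CPM in Control. Its log2 fold change was -0.88 with a standard error of 0.20 (adjusted p = 0.115, edgeR's quasi-likelihood test). By the same test the adjusted p was 0.00629 without Over 1 and 0.445 without Over 2. The likelihood ratio test gave 0.00505 and DESeq2 gave 0.00230. In the siRNA libraries it had 94.3, 122 and 131 CPM in Inter and 87.0, 89.4 and 89.3 CPM in NC, so that Inter and NC did not overlap. ENSGALG00000003003 had 3.88, 6.17 and 3.57 CPM in Over, against 5.62, 8.48 and 9.10 CPM in Control, which overlapped. Its log2 fold change was -0.78 with a standard error of 0.23 (adjusted p = 0.153, edgeR's quasi-likelihood test). By the same test the adjusted p was 0.0754 without Over 1. The likelihood ratio test gave 0.0394, and DESeq2 gave no adjusted p.

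A feature that the rule did not use is the number in the gene ID. Ensembl numbers gene models as they enter its annotation, so high numbers mark later entries. A number of 30000 or more, a limit set after the values were seen, was carried by 65 of the 150 members (43.3%) and by 3071 of the 10020 genes (30.6%). The share was highest at the top of the list, with 10 of the first 10 members and 21 of the first 25. Members with such IDs had a median ratio of NC to Control of 1.86 on the log2 scale, against 1.51 in the 85 members with lower numbers. For Inter over Over the median ratios were 1.80 and 1.43 in the same classes. Over all 10020 genes the medians were 0.14 and 0.21 for NC over Control, and 0.11 and 0.18 for Inter over Over. The later entries were thus a larger share of the members than of all genes, while over all genes their medians were the lower ones. Over all genes their ratios of NC to Control also spread more widely, with quartiles of -0.55 and 0.51. Those of lower numbers had quartiles of -0.19 and 0.50. The median level in NC was 26.4 CPM for the later entries, against 39.3 CPM for lower numbers.

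**Figure D4:**
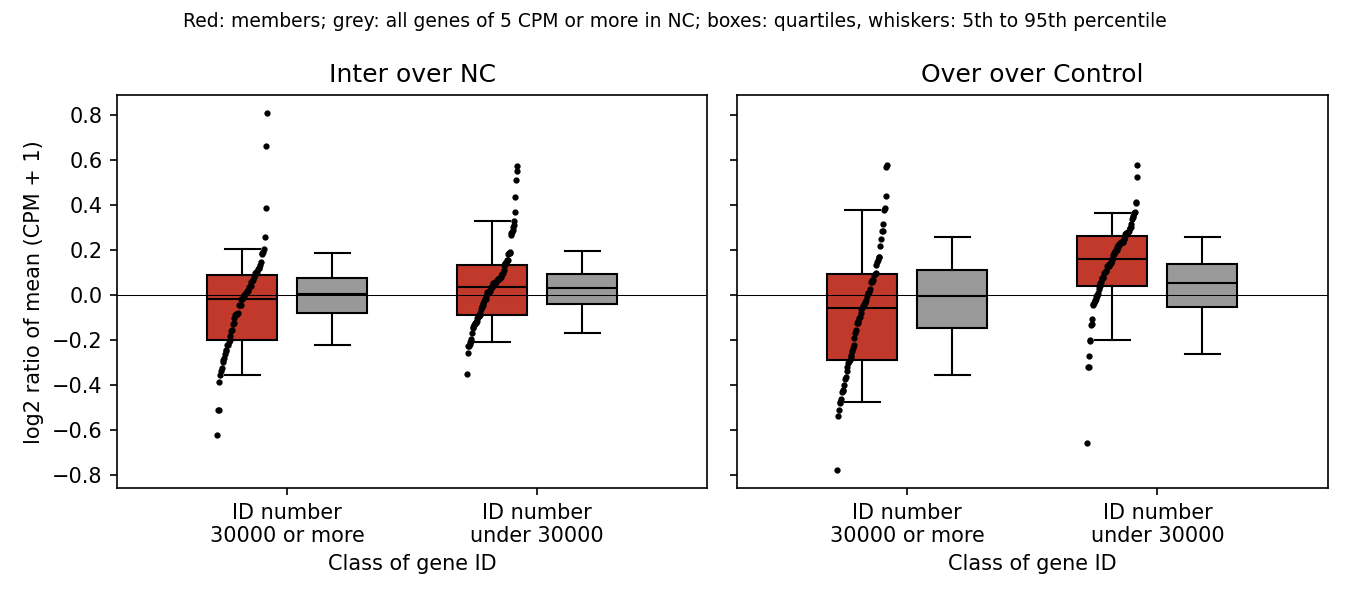
log2 ratio of mean CPM + 1 for Inter over NC (left) and Over over Control (right) by the number in the gene ID. Red boxes are the members, with each member as a point, grey boxes are all genes of 5 CPM or more in NC, boxes are quartiles and whiskers reach from the 5th to the 95th percentile. For Over over Control the members' medians are -0.06 for numbers of 30000 or more and 0.16 for lower numbers.

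The same classes were also compared between Over and Control. Among the 85 members with lower numbers 67 had a mean above that of Control in Over, with a median log2 ratio of 0.16. Among the 65 members with numbers of 30000 or more 26 did, with a median of -0.06. Over all 10020 genes the medians were 0.05 for lower numbers, where 4428 of 6949 genes were above Control, and -0.0022 for higher numbers, where 1524 of 3071 were. In the fitted values the median of the higher numbers stayed below 0 (-0.14 to -0.07) and that of the lower numbers above 0 (0.10 to 0.24) under each of 13 other settings. Inter over NC, with all 3 Inter libraries, showed the same order, with median ratios of -0.02 for the higher and 0.04 for the lower numbers. Its medians over all 10020 genes had this order too, with 0.0047 for the higher and 0.031 for the lower numbers. The members' fitted medians of Inter over NC were below 0 for the higher numbers (-0.09 to -0.03) under each of 15 other settings. Those of the lower numbers were above 0 (0.0024 to 0.10). With all 3 Inter libraries the fitted medians were -0.05 for the higher and 0.0052 for the lower numbers. The settings reuse the same libraries, and Control and NC took part in choosing the members, so the unchanged signs are a description only. No test was made between the classes, since they were seen in these values.

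Replicates of the members differed somewhat more than those of all 10020 genes, in a comparison not matched for level. The members' median level was 7.33 CPM in Over and 7.68 CPM in Control, against 36.4 and 36.1 CPM over all genes. In Inter and in NC it was 27.7 CPM, against 35.5 and 35.0 CPM. The median SD of log2 (CPM + 1) over the members was 0.13 in Inter, 0.13 in NC, 0.15 in Over and 0.18 in Control, against 0.10, 0.09, 0.10 and 0.10 over all 10020 genes in the same groups. The largest SD of a member was 0.59 in Inter, 0.58 in NC, 0.67 in Over and 0.62 in Control.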

How the data were processed

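RNA of 12 transfected cultures was measured by sequencing. The authors deposited raw read counts per Ensembl gene ID, 1 column per library. By the paper and the submitters' processing notes, reads were cleaned, aligned to galGal5 with TopHat2 2.0.12 on a Bowtie2 2.2.3 index and counted with HTSeq 0.6.1. The sources used here do not give the annotation version, the strand setting or the counting mode. Reads of antisense, overlapping or near-identical genes may therefore be shared or lost. No line named anything but a gene (0 lines), and 0 columns belonged to other samples. Of the gene IDs, 0 matched the RefSeq gene table of assembly GRCg7b.

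CPM used column totals. Tests used edgeR 4.0.16 in R 4.3.3 with filterByExpr (minimum count 10), TMM, glmQLFit and glmQLFTest, with Benjamini-Hochberg adjustment over all genes tested at 0.05. Each fit held only the groups compared, with Inter 3 left out against NC. Standard errors were derived from the estimate and its F statistic. Alternatives were the likelihood ratio test, DESeq2 1.42.0, other scalings and filters, a single fit of all 12 libraries, a block on the replicate number, and each library left out. A single fit of the 11 libraries without Inter 3, all 3 Inter libraries against NC 1 and 2, and the split by ID number were added after seeing the data. The fits were run on simulated counts with a common spread for all genes and no library set apart from its group. That run does not bear on libraries such as Inter 3, NC 3 or Over 1.

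The members and lists were chosen with earlier results of these data known. By the rule for named genes, IDs without symbols were limited to the first 2 by rank, the last inside and first outside the list, and per comparison and direction the 2 called members with the largest fold change and no overlap between groups, or, with none called, the 2 of lowest p.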

Additional observations from a re-analysis of the deposited data

How the results depend on the processing

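All 150 members were called higher in Inter than in Over, and 0 lower, under each of 13 other settings, leaving out each library included. Among them are the 141 that met the low-count filter in Over alone in the main fit. The members' median log2 fold change lay between 1.47 (no low-count filter) and 1.67 (library totals only). Calls between Inter and NC depended on the settings. Members called higher and lower were 6 and 0 with the likelihood ratio test, 4 and 1 with DESeq2, 1 and 0 with library totals only, and 15 and 10 with no low-count filter, where 218 and 616 of all 21264 genes were called. They were 0 and 0 with all 3 Inter libraries, with a single fit of all 12 libraries, and in fits chosen after seeing the data: all 3 Inter libraries against NC 1 and 2, and a single fit of the 11 libraries without Inter 3. Over all genes the fit of 11 libraries called 3 higher and 1 lower, and the others 0 and 0. Nothing is read from the members' zeros there. With the replicate number as a block 21 were called higher and 19 lower, beside 769 higher and 1473 lower of all 14194 genes. This fit sets NC 3 aside, since its number has no Inter partner. Leaving out each library in turn gave from 0 to 11 higher and from 0 to 10 lower. Where that left 1 Inter library, its spread was taken to be that of NC. The members' median log2 fold change of Inter over NC ranged from -0.03 to 0.07 and so changed sign.

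Members called higher and lower in Over against Control were 7 and 3 with the likelihood ratio test, 7 and 2 with DESeq2, 2 and 0 with library totals only, and 7 and 3 with no low-count filter, where 66 and 250 of all 20631 genes were called. Leaving out each library gave from 0 to 15 higher and from 0 to 11 lower, beside from 0 to 519 and from 0 to 1366 of all genes. The replicate block gave 1 higher and 0 lower, beside 2 higher and 7 lower of all 14128 genes. The members' median log2 fold change of Over over Control ranged from 0.01 (without Control 3) to 0.15 (without Control 1). Over all genes, scaling by totals gave 10 higher and 1 lower between Inter and NC, against 14 and 18 with TMM, and 3 higher and 7 lower between Over and Control, against 2 and 2. DESeq2 gave no adjusted p for 21 members between Inter and NC and for 68 between Over and Control, and 149 members were tested without Control 2 or without Control 3. The cause of these changes was not tested. Same-numbered libraries did not deviate together in the 3 comparisons (correlations from -0.30 to 0.05 over 14824 genes). The numbers were therefore not taken to pair the samples. Libraries of different number had correlations from -0.19 (Inter 3 with Over 2) to 0.33 (Inter 3 with Over 1). Between Inter and Over the block changed no call of a member. It called 3743 of all genes higher and 4276 lower, against 4450 and 4694 without it.

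The list itself shared 146 of its members with a list made on TMM library sizes, 141 with a pseudocount of 0.5 CPM, 101 with a pseudocount of 5 CPM, and from 135 to 141 when 1 NC or Control library was left out. Members of low count in the vector libraries, down to 4 reads, limit what can be said of Over against Control.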
